A study of Balaenoptera physalus with 6 samples.

Results

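Members of the WNT, Notch, Hedgehog and BMP signalling pathways were examined in a methylation survey of fin whale skin (Balaenoptera physalus, Mediterranean). They were chosen by name. Any gene given for a CpG site in the authors' list of different sites was taken if its symbol began as those of WNT ligands, their receptor LRP6, inhibitors and transducers, Notch receptors, ligands and Fringes, Hedgehog components, or BMP, GDF and TGFB proteins. This pattern took in 62 genes of the 6197 that the list names, and 191 sites of its 32682. Members were not chosen by their methylation values, but the listed sites were. The authors listed a CpG where the group means differed by at least 10 percentage points and the deposited, unadjusted p was at most 0.05. The gaps between groups below are therefore a description and carry no test.

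DNA from skin was cut with MspI, bisulfite-treated and sequenced (reduced representation bisulfite sequencing, RRBS). The methylation level of a site is the share of its reads that kept a cytosine. By its label, each of 3 samples had a high organochlorine concentration (high OC) and each of 3 others a low one (low OC). Organochlorines are persistent, fat-soluble contaminants such as chlorinated pesticides, and the study asked whether methylation varied with the load of them. No age, sex or further treatment is used here, nothing in the labels states that the samples came from separate animals, and the title prefix of the samples (BPT for high OC, BPL for low OC) coincides with the groups, so what it marks cannot be told apart from contaminant load. Skin samples hold several cell types, and a shift in cell types and a shift of methylation within a cell cannot be told apart.

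These pathways are short-range signals that pattern embryos and renew adult epithelia. WNT proteins bind Frizzled and LRP receptors and, in the canonical branch, stabilise beta-catenin, which works through TCF and LEF factors. In the Notch pathway, a DLL or JAG ligand on one cell triggers cleavage of a Notch receptor on its neighbour. Hedgehog proteins relieve PTCH inhibition of SMO and so act on GLI factors. BMP and TGF-beta ligands bind serine-threonine kinase receptors that act through SMADs. In mammalian skin, these signals take part in hair follicle and epidermal renewal. CpG methylation near a promoter often accompanies low gene activity, while methylation within gene bodies has no single reading. RNA was not measured here.

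The members' sites were split almost evenly between the directions. Of the 191 sites, 92 were higher and 99 lower in high OC skin, so 48.2% were higher, against 50.8% of all listed CpG sites and 52.9% of the listed sites that name other genes. By gene, 27 members had more higher sites, 27 had more lower sites and 8 had equal numbers. Of the 38 members with more than 1 site, 24 had sites of both directions, 6 had only higher sites and 8 only lower sites. No pathway leaned far to one side. WNT genes had 33 higher and 38 lower sites, Notch genes 18 and 19, Hedgehog genes 16 and 17, and BMP and TGFB genes 25 and 18. These counts leave out 5 genes that are set apart below, with 7 sites, all lower.

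**Figure D1:**
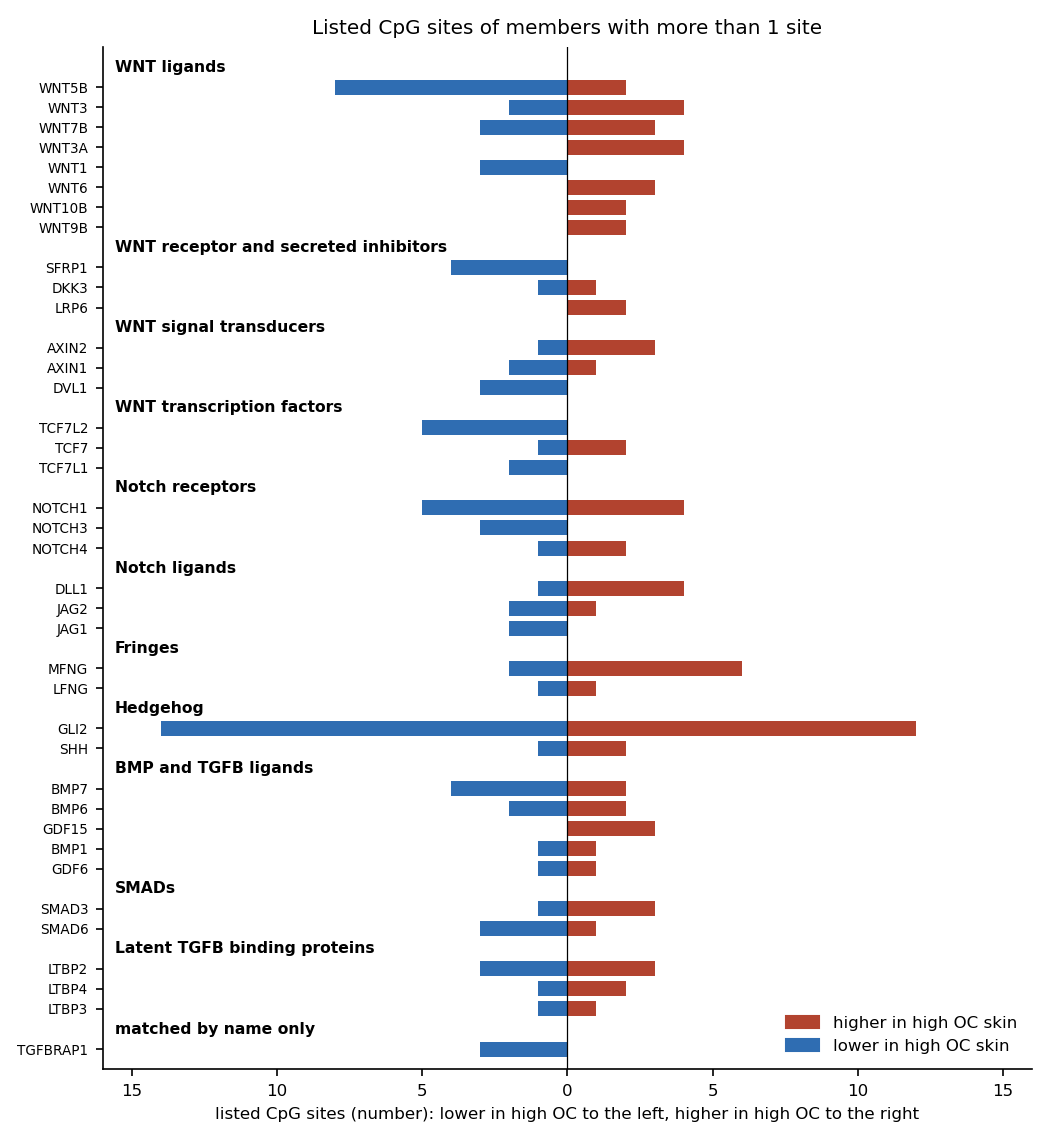
Number of listed CpG sites of each of the 38 member genes with more than 1 site, grouped by role, with sites lower in high OC skin drawn to the left and higher sites to the right. GLI2 stands out with 12 higher and 14 lower sites, and 24 of the 38 genes have bars on both sides.

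Gaps were of ordinary size for this list. The median absolute gap was 18 points at member sites and 19 points at all listed CpG sites. The authors labelled 15 member sites as strongly different (33 points or more), which is 7.85% against 13.4% of all listed sites. All samples of a group lay beyond all samples of the other at 190 of the 191 sites, against 99.5% of all listed sites, as the selection nearly requires. The exception was an exonic NOTCH1 site at start 10197699. On a stretch of 1 scaffold where unselected sites were available, 2.00% of 651 CpG sites met the authors' criteria. How many sites were tested in each member gene is not known here, so the number of listed sites says nothing of how densely a gene was affected.

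**Figure D2:**
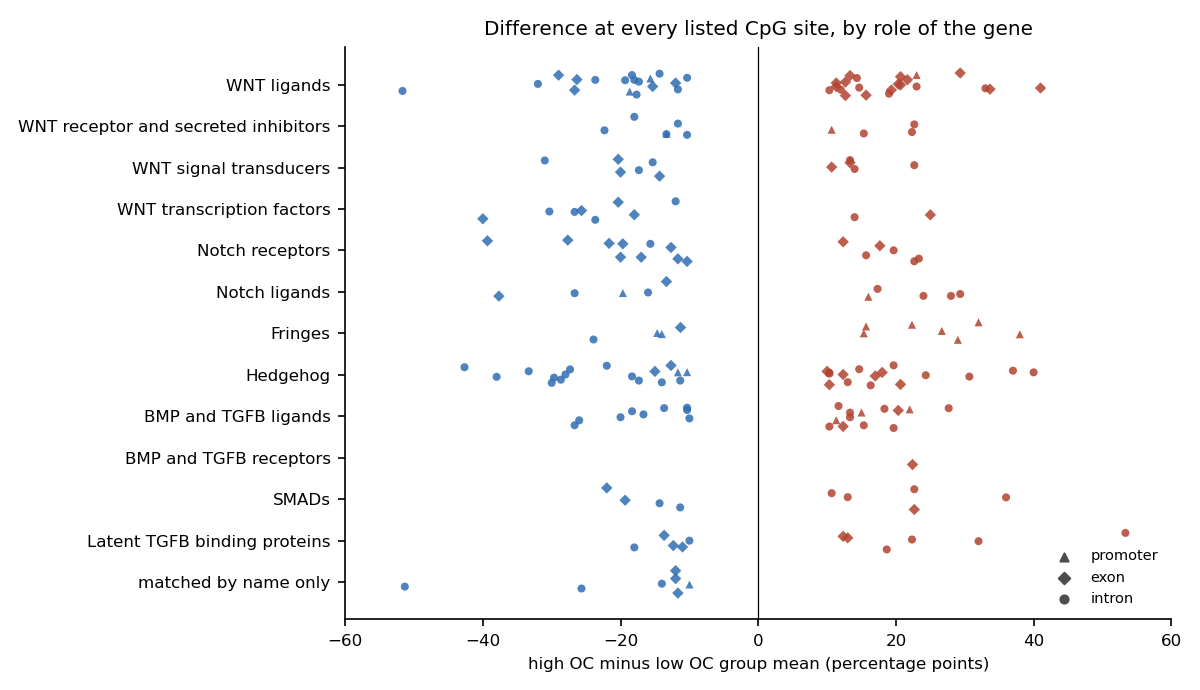
Difference of group means (high OC minus low OC, percentage points) at each of the 191 member sites, by role of the gene, with the marker giving promoter, exon or intron. The empty band around 0 is the authors' minimum of 10 points, and sites lie on both sides in most roles.

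Depth was modest. Coverage of member sites ran from 5 to 76 reads per sample with a median of 13, and 79 sites had at least 10 reads in every sample. At 10 reads, a level of 50% has a 95% Wilson interval of 23.7% to 76.3%, which covers counting error only. Mean reads per member site were 16.9, 15.1 and 16.8 in high OC and 14.3, 14.6 and 15 in low OC samples. That is 16.3 ± 1.03 against 14.6 ± 0.312 (SD, n = 3 each, exact two-sided permutation p = 0.1, the smallest that 3 against 3 allows). The median reads per member site gave an exact permutation p = 0.2. Over all listed CpG sites, mean reads were also greater in high OC samples. They were 18.7 ± 1.32 against 17.5 ± 0.247 (SD, n = 3 each, exact two-sided permutation p = 0.3). Relative to these, the member means were 0.869 ± 0.0103 against 0.839 ± 0.00719 (exact two-sided permutation p = 0.1). Whether depth plays a part in the gaps was not tested.

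Among WNT ligands, 12 genes had 40 listed sites, of which 22 were higher and 18 lower. WNT5B, a ligand of the non-canonical branch, had the most, with 2 higher and 8 lower sites. Over its 8 lower sites the samples averaged 24.4%, 26.6% and 29.4% in high OC and 49.9%, 53.4% and 46.5% in low OC skin. One intronic WNT5B site, on the minus strand at start 1644950 of scaffold NW_006726543_1, had the second widest gap of all member sites. Its levels were 20%, 0% and 20% in high OC and 71%, 89% and 35% in low OC samples, at 9 to 17 reads. Low OC sample 3 stood well below the other two there, and its Wilson interval of 17.3% to 58.7% overlapped those of all 3 high OC samples. The only listed WNT5B promoter site, at start 1727447, was at 0%, 0% and 5% in high OC and 11%, 30% and 20% in low OC skin.

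WNT6 and WNT3A had higher sites only. WNT6 had 3 exonic sites within 41 bases, and they averaged 64.3%, 66.7% and 66.7% in high OC against 38.0%, 25.7% and 37.7% in low OC skin. Its first site, at start 9894539 of scaffold NW_006729012_1, was at 62%, 60% and 40% against 14%, 11% and 14%, at 5 to 16 reads. The high OC samples thus spread by over 20 points while the low OC samples stayed close together. WNT3A, a canonical ligand, averaged 95.7% ± 3.64 against 79.1% ± 1.44 (SD, n = 3 each) over 4 sites. Both groups were highly methylated there.

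**Figure D3:**
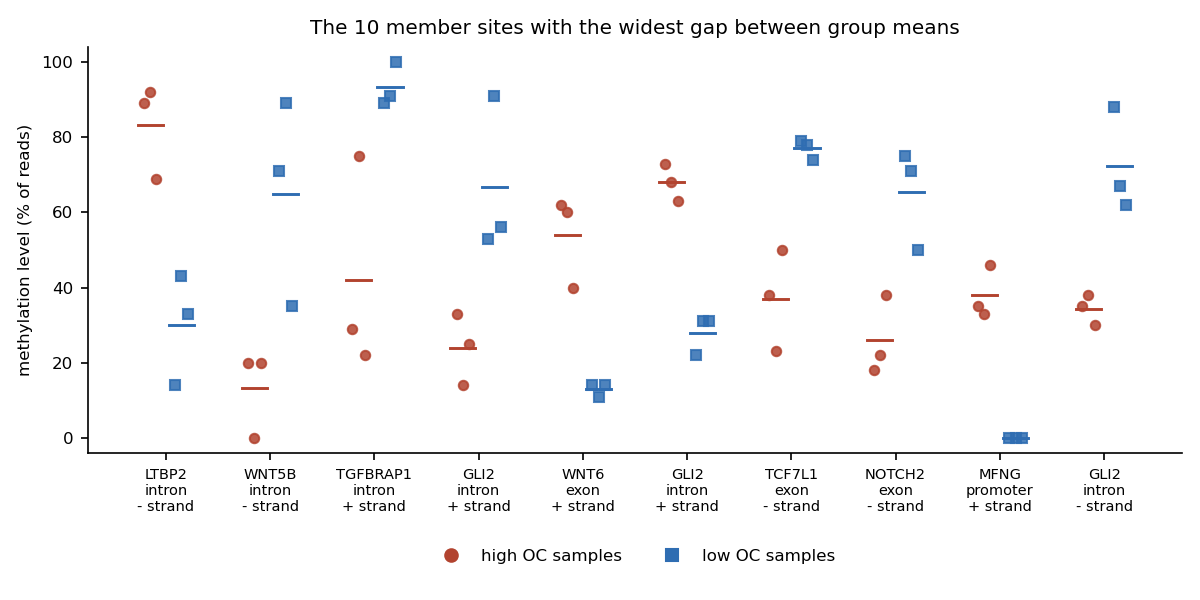
Methylation level (% of reads) in each of the 3 high OC and 3 low OC samples at the 10 member sites with the widest gap between group means, horizontal bars marking the means. Levels at MFNG are 0% in all 3 low OC samples, and single samples stand apart at WNT5B and TGFBRAP1.

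WNT3 and WNT7B, canonical ligands in mammals, were mixed. WNT3 averaged 94.0% ± 3.36 against 77.9% ± 1.42 over 4 higher sites, and 4.0% ± 3.61 against 25.5% ± 10.5 over 2 lower sites in an intron (SD, n = 3 each). The higher WNT3 sites thus lay in highly methylated sequence and the lower sites in sparsely methylated sequence. WNT7B had 3 sites each way, at 32.4% ± 1.02 against 20.1% ± 3.10 and at 9.78% ± 0.192 against 25.1% ± 6.15 (SD, n = 3 each). The remaining ligands had 1 to 3 sites each. WNT1 had 3 lower sites, WNT10B and WNT9B 2 higher sites each, WNT9A and WNT11 1 higher site each, and WNT4 and WNT5A 1 lower site each.

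Several WNT genes lay close to each other on the deposited scaffolds, as they do in other vertebrates. The listed sites of WNT10B and WNT1 were 13239 bases apart and had opposite directions. The 2 WNT10B sites averaged 96.0%, 95.0% and 93.5% in high OC against 77.5%, 73.0% and 72.5% in low OC skin. A pair of WNT1 sites within 72 bases averaged 9.5%, 17.5% and 10.5% against 26%, 39% and 34%. The sites of WNT9A and WNT3A, 93691 bases apart, were all higher. Between WNT3 and WNT9B lay 62529 bases, and the WNT9B sites were higher.

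At the WNT receptor and among secreted inhibitors, 4 sites were higher and 6 lower. LRP6, a co-receptor, had 2 higher intronic sites, 545 bases apart, with nearly the same values. The first was at 73%, 70% and 67% in high OC against 46%, 38% and 58% in low OC skin. SFRP1, which binds WNT ligands outside the cell, had 4 lower intronic sites at 29.5%, 26.5% and 28.5% against 39.3%, 42.5% and 42.8%. Its gap of -13.3 points was small, and the separation of the groups there is nearly required by the way the sites were listed. DKK3 had 1 intronic site each way, at 100% in each high OC sample against 86%, 86% and 82%, and at 9%, 21% and 16% against 40%, 33% and 40%. DKK2 had a lower promoter site (0% in each high OC sample against 22%, 11% and 7%) and SFRP2 a higher promoter site (15%, 11% and 6% against 0% in each low OC sample).

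Inside the cell, WNT transcription factors had mostly lower sites, 8 of 10. TCF7L2, the TCF factor best known for its link to diabetes in humans, had 5 lower sites and none higher, spread over 128675 bases. They averaged 57.0%, 48.2% and 57.4% in high OC against 74.4%, 81.2% and 74.8% in low OC skin. TCF7L1, which mostly represses WNT targets in mice, had 2 lower exonic sites 5 bases apart on opposite strands. The minus-strand site, at start 2145974 of scaffold NW_006726165_1, was at 38%, 23% and 50% against 79%, 78% and 74%. The groups stood 24 points or more apart at their closest samples there. TCF7 had 2 higher and 1 lower site. Transducers were mixed. DVL1, a scaffold that relays Frizzled signals, had 3 lower sites at 17.1% ± 5.42 against 38.0% ± 3.38 (SD, n = 3 each). AXIN2, a feedback inhibitor of beta-catenin, had 3 higher sites at 93.4% ± 2.67 against 76.8% ± 2.22 (SD, n = 3 each) and 1 lower site. AXIN1 had 1 higher and 2 lower sites and DVL2 1 higher site.

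Notch receptors had 6 higher and 10 lower sites, and 9 of the 11 exonic ones were lower. NOTCH1, a receptor that promotes keratinocyte differentiation in mice, had 5 lower sites, all exonic, and 4 higher sites, all intronic. The lower sites averaged 79.6%, 84.8% and 79.0% in high OC against 100%, 100% and 96% in low OC skin. The higher sites averaged 75.3%, 79% and 80% against 56.8%, 58.3% and 58.3%. Both kinds were covered by few reads, 5 to 15 per sample. NOTCH2 had a single exonic site, at start 671548 of scaffold NW_006725576_1, at 18%, 22% and 38% against 75%, 71% and 50%. NOTCH3 had 3 lower exonic sites, and NOTCH4 2 higher exonic sites and 1 lower intronic site.

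Among Notch ligands, DLL1 stood on the higher side and the JAG genes mostly on the lower. DLL1 had 4 higher intronic sites within 84 bases, averaging 63.8%, 54.3% and 54.3% in high OC against 31.5%, 33.8% and 33% in low OC skin. They included both strands of one CpG, at 51.7% against 23.7% on the plus and 56.7% against 32.7% on the minus strand. The other DLL1 site, in an exon, was lower (86.7% ± 3.21 against 100% ± 0, SD, n = 3 each). JAG2 had an exonic site at 0% in each high OC sample and at 20%, 57% and 36% in the low OC samples. No methylated read was seen among 27 reads of the high OC samples, which allows up to 11.1%. In the JAG2 promoter, neighbouring sites 23 bases apart went opposite ways, at 75.7% against 95.3% and at 84.3% against 68.3%, on only 5 to 10 reads. JAG1 had 2 lower intronic sites at 14.3% ± 5.30 against 35.7% ± 7.75 (SD, n = 3 each).

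Fringes are glycosyltransferases that modify Notch receptors and so tune which ligand activates them. MFNG (Manic fringe) held 8 of the 22 promoter sites of all members, more than any other member. 6 of them were higher, averaging 57.7%, 62.2% and 56.7% in high OC against 30.8%, 31.7% and 32.3% in low OC skin. All were also exonic, at starts 380024 to 380070 of scaffold NW_006725354_1. One CpG was listed on both strands. Its plus strand, which had the widest gap of the MFNG sites, at start 380043, was at 35%, 33% and 46% against 0% in each low OC sample, and its minus strand at 21%, 40% and 26% against 0% in each. The low OC samples had 0 methylated reads of 82 on the plus strand, which allows up to 3.66%, and 0 of 76 on the minus strand, which allows up to 3.95%, by counting error only and with each read taken as a separate molecule. All coverages on both strands were even numbers, and with 0.5 of the reads (41 and 38) the limits would be 7.32% and 7.89%. Only 4 bases before it, the site at start 380039 went the other way, at 65%, 56% and 62% against 79%, 73% and 75%. This site had the same coverage as the one at 380043 in all 6 samples, and exactly 2 times that of the sites at 380024 and 380035. Sites this close can lie on the same reads, so they are no separate observations. The remaining promoter site, in the intron at start 380349, was lower.

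**Figure D4:**
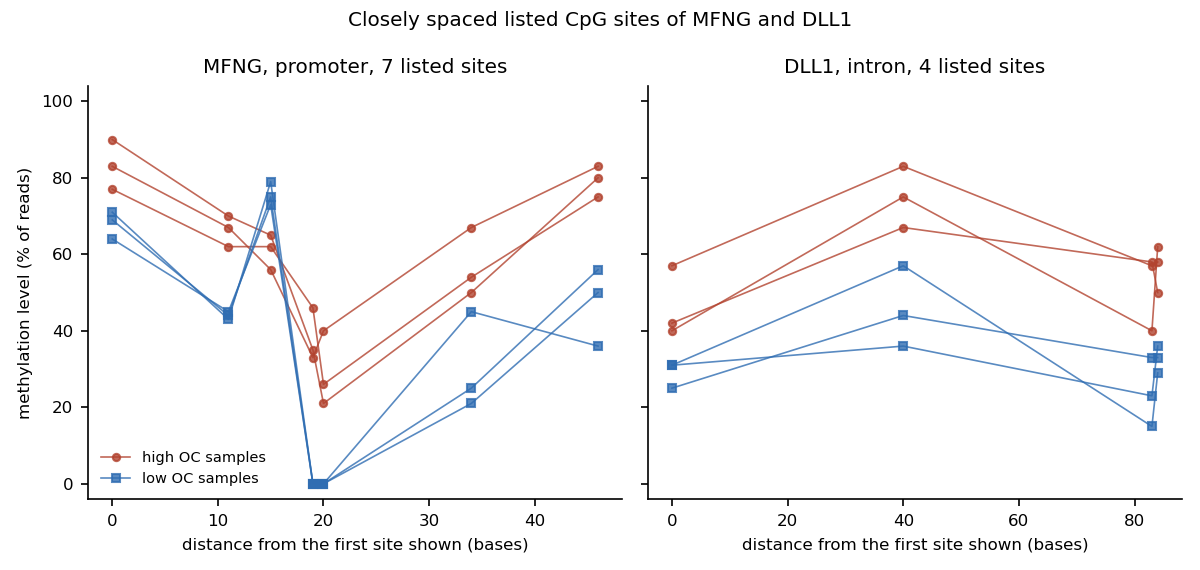
Methylation level (% of reads) in each high OC and low OC sample along 7 listed sites of the MFNG promoter and 4 of a DLL1 intron, by distance in bases from the first site shown. The high OC samples lie above the low OC samples at every DLL1 site and at 6 of the 7 MFNG sites, and at 2 MFNG sites all low OC samples are at 0%.

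LFNG (Lunatic fringe) had 1 higher promoter site at 18%, 33% and 30% in high OC against 9%, 12% and 13% in low OC skin, and 1 lower intronic site at 8%, 0% and 21% against 35%, 33% and 33%. RFNG had 1 lower exonic site.

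GLI2, a zinc-finger factor that carries Hedgehog signals to target genes, had the most listed sites of any member. It ranked 33rd by number among all genes named in the list. Its 26 sites, 12 higher and 14 lower, spread over 176427 bases of scaffold NW_006726910_1, and none lay in a promoter. The lower sites, 13 intronic and 1 exonic, averaged 58.4%, 58.1% and 60.6% in high OC against 86.1%, 86.0% and 81.3% in low OC skin. The higher sites averaged 87.4%, 90.4% and 83.8% against 67.6%, 68.0% and 65.3%. Averages over chosen sites are close within a group by the way the sites were listed. The 2 directions were intermixed along the gene, though 4 of the 5 exonic sites were higher. An intronic site at start 1357165 was at 73%, 68% and 63% against 22%, 31% and 31%. Another at start 1415675 was at 33%, 14% and 25% against 53%, 91% and 56%, where low OC sample 2 was far above the other two.

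**Figure D5:**
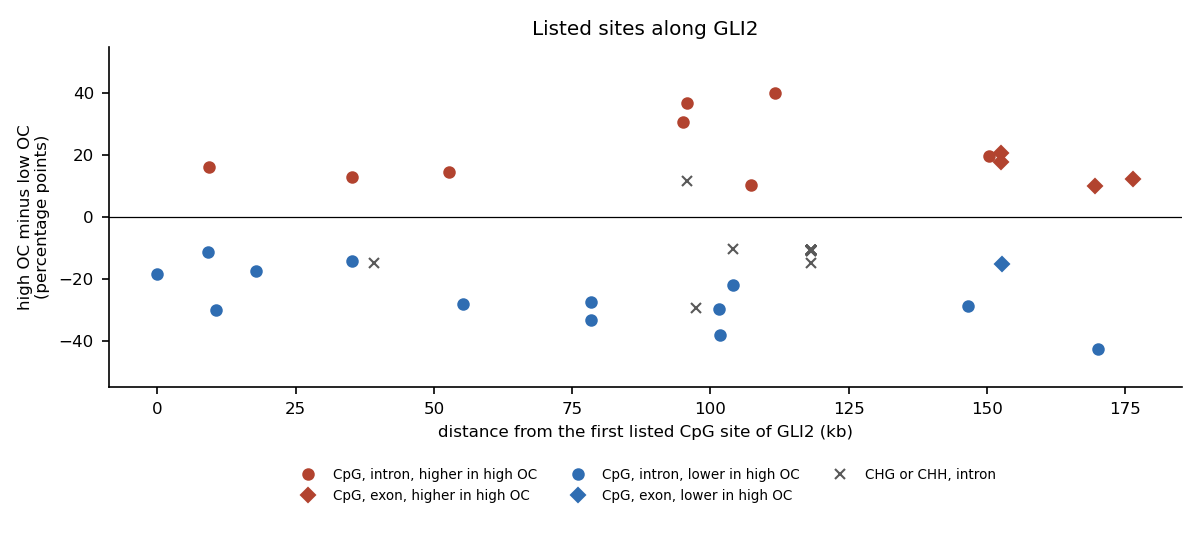
Difference of group means (high OC minus low OC, percentage points) at listed sites of GLI2, by distance in kb from its first listed CpG site, with CpG sites coloured by direction and CHG or CHH sites as crosses. Higher and lower CpG sites are intermixed along the gene, and the crosses pile up at 1 place below 0.

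The rest of the Hedgehog list was thin. SHH, the ligand, had 2 higher and 1 lower site, all at low levels. PTCH1, its receptor, had 1 higher intronic site at 100%, 91% and 83% in high OC against 67%, 79% and 55% in low OC skin, and SMO, the signal transducer, had 1 higher exonic site. GLI4, which resembles GLI factors in name, had 1 lower promoter site at 83%, 88% and 86% against 100%, 100% and 92%.

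BMP and TGFB ligands (with BMP1 counted by its name) had 13 higher and 9 lower sites in 10 genes, and none was labelled strongly different. GDF15, a stress-induced and distant member of the family, had 3 higher sites, 2 of them in its promoter. The promoter sites averaged 83.5%, 85% and 86% in high OC against 68.5%, 71.0% and 59.5% in low OC skin, at 7 to 11 reads, and had the same coverage in all samples. Its exonic site was at 32%, 25% and 30% against 4%, 13% and 9%. BMP7, which acts in kidney, eye and skin appendage development in mice, had 4 lower intronic sites at 7.17% ± 3.09 against 23.8% ± 1.88 (SD, n = 3 each) and 2 higher intronic sites, which averaged 96.5%, 95% and 93.5% against 81%, 79% and 72.5%. As in WNT3, the lower sites were sparsely methylated and the higher ones densely. BMP6 had 2 intronic sites each way, at 98.8% ± 2.02 against 87.0% ± 4.77 and at 82.8% ± 1.53 against 98.0% ± 3.46 (SD, n = 3 each). BMP1, a protease that cleaves procollagen despite its name, and GDF6 had 1 site each way. Single higher sites were listed in BMP3, BMP8B, GDF10 (19%, 11% and 7% against 0% in each low OC sample) and TGFB2 (83%, 100% and 89% against 71%, 77% and 69%), and a single lower site in GDF11 (29%, 50% and 47% against 69%, 67% and 70%).

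Of the receptors, TGFBR2 alone was listed, with 1 higher exonic site at 92%, 89% and 75% in high OC against 67%, 60% and 62% in low OC skin. SMAD3, which carries TGF-beta signals into the nucleus, had 3 higher sites at 71.0%, 71.0% and 73.0% against 44.0%, 41.0% and 48.7%, and 1 lower site. SMAD6, an inhibitory SMAD on the same scaffold, had 3 lower sites at 22.7%, 29.0% and 33.3% against 45.7%, 43.3% and 43.7%, and 1 higher site. SMAD7, also inhibitory, had 1 higher site.

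LTBP2, an extracellular matrix protein of the family that holds latent TGF-beta, contained the widest gap of all member sites. That intronic site, on the minus strand at start 11111915 of scaffold NW_006727797_1, was at 89%, 92% and 69% in high OC against 14%, 43% and 33% in low OC skin. It was read 7 to 13 times per sample, and the Wilson interval of high OC sample 3 (42.4% to 87.3%) overlapped those of all 3 low OC samples. With neighbours at starts 11111858 and 11111923 it formed a cluster of 3 higher sites at 70.3%, 62.3% and 52.0% against 16.3%, 34.0% and 26.7%. The 3 lower sites elsewhere in LTBP2 averaged 72.6% ± 3.10 against 86.4% ± 2.83 (SD, n = 3 each). LTBP4 had 2 higher and 1 lower site and LTBP3 1 each way.

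5 genes that matched the name pattern were set apart from the roles above: TGFBRAP1, TGFBI, TGFB1I1, BMP2K and TGFBR3L. Their roles in these pathways were not placed here, and the pathway counts above leave out their sites. All 7 of their sites were lower. BMP1, with 1 site each way, and GLI4, with 1 lower site, also match by name but were counted with the roles above. TGFBRAP1, a vesicle tethering protein, had the widest of these gaps at an intronic site with 29%, 75% and 22% in high OC against 89%, 91% and 100% in low OC skin, where high OC sample 2 stood apart from the other two. The TGFBR3L site, also intronic, was at 29%, 13% and 17% against 45%, 36% and 55%.

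By location, 22 member sites lay in a promoter, 76 in an exon and 111 in an intron, with some sites in more than 1 of these. Promoter sites were 13 higher and 9 lower (59.1% higher, against 65.8% of all listed promoter sites). MFNG alone gave 6 of the higher and 2 of the lower promoter sites. Exon sites were 39 higher and 37 lower (51.3% higher, against 56.4% of all listed exon sites). Intron sites were 51 and 60 (45.9% higher, against 50.5% of all listed intron sites). Exon sites made up 39.8% of member sites, against 30.9% of the listed sites with a gene name. For promoter sites this was 11.5% against 14.6%, and for intron sites 58.1% against 66.2%. Apart from MFNG, GDF15 and JAG2, no member had more than 1 promoter site.

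By level, sites with a mean under 20% over the 6 samples were more often lower than higher, 29 against 12. Among all listed CpG sites at such levels the count was 2652 lower and 3122 higher. The 29 lower sites came from 17 genes, and 15 of them belonged to WNT pathway genes, among them WNT5B, WNT3, WNT7B, WNT1, SFRP1 and DVL1. At 8 of the 29, all 3 high OC samples were at 0%. At 7 of the 12 higher sites, all 3 low OC samples were at 0%. Counted at any level, these were 8 of 99 lower and 7 of 92 higher member sites. Among all listed CpG sites, 1111 of 16082 lower sites had all high OC samples at 0%. Of the 16600 higher ones, 1319 had all low OC samples at 0%. With at least 10 reads in each sample, 14 lower and 6 higher sites were left, against 1163 lower and 1556 higher among all listed sites. Between 20% and 80%, 42 member sites were higher and 36 lower, and at 80% or more 38 and 34.

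Neighbouring sites of a gene had the same direction mostly when very close. Of 38 consecutive pairs at most 100 bases apart, 30 had the same direction, and of 21 pairs between 100 and 1000 bases apart 11 did. Between 1000 and 10000 bases 19 of 38 pairs did, and beyond that 16 of 32. Close sites can lie on the same reads. In 15 genes, 35 sites had coverage identical to, or exactly 2 times, that of another listed site of the gene in all 6 samples. There were 22 runs of 2 to 4 sites of one direction, 11 higher and 11 lower.

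Outside CpG, the members had 10 listed CHG and 30 listed CHH sites, where H is any base but G. Most CHH sites lay in one short stretch of a GLI2 intron. There, 2 CHG and 19 CHH sites within 43 bases on the minus strand, at starts 1363731 to 1363774, were at 0% in all 3 high OC samples and at low levels in the low OC samples. 18 of these 21 sites had the same set of levels, 0% in each high OC sample against 17%, 9% and 6%. These levels stood for 1 or 2 methylated reads per low OC sample, with 6 to 34 reads covering a site, and the one site beyond that had 6 in low OC sample 3. Sites this close can lie on the same few reads, so they are no separate observations. Without this stretch, members had 3 higher and 5 lower CHG sites and 5 higher and 6 lower CHH sites. All listed CHG sites were 850 higher and 892 lower, and all listed CHH sites 1614 higher and 1602 lower.

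Some sites listed outside CpG had high levels. Their class as CHG or CHH was taken as deposited and could not be checked against a genome here. A CHG site in a BMP7 intron was at 100% in each high OC sample against 62%, 82% and 60% in low OC skin, and one in a WNT5B intron at 72%, 83% and 77% against 50%, 40% and 50%. A CHG site in GLI2 was at 50%, 33% and 21% against 58%, 67% and 67%. A CHH site in AXIN2, at start 1445091, was at 83%, 71% and 78% against 100%, 90% and 89%, and the listed AXIN2 CpG site 22 bases away was at 83%, 71% and 78% against 88%, 90% and 100%. The DVL1 promoter had a CHH site at 0% in each high OC sample against 17%, 14% and 17%. Of the genes with a matching name but no listed CpG site, BMP4, GLI3, DLL4 and BMPR1B had CHG or CHH sites.

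Genes of the same pathways outside the name pattern, taken from a chosen list, were split nearly evenly when pooled. Within WNT and Notch they leaned lower, and within BMP and TGFB higher. Of 102 such genes, 45 had a listed CpG site, with 62 higher and 70 lower sites in all. WNT genes of this kind had 25 higher and 36 lower sites, Notch genes 5 and 10, Hedgehog genes 6 and 6, and BMP and TGFB genes 26 and 18. NKD2, an inhibitor of DVL proteins, had 2 higher and 8 lower sites, and its relative NKD1 had 6 and 5. SKI, a repressor of SMAD activity, had 8 and 6. SMURF1, a ubiquitin ligase for SMADs, had 4 and 6, and AMH, a TGF-beta family hormone, had 5 higher sites and none lower.

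Few markers of cell types that skin can hold were listed, and a methylation list cannot show the tissue's identity. Listed sites included those in KRT15 (2 higher) for keratinocytes, LEP (1 higher) for adipocytes, CD4 (2 higher and 1 lower) for immune cells, DCT (1 lower) for melanocytes, and KDR (1 and 2) and VWF (2 and 3) for endothelium, and there were none in the 6 fibroblast markers. The part of cell composition in the results was not tested.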

How the data were processed

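Skin DNA of 6 fin whale samples was profiled by RRBS. Per the submitters' processing notes, Bismark was used. Not given in the sources used here are its version, a genome build, gene models and how far a promoter reaches. The authors deposited, per the file headers, a methylation level per cytosine and sample as a fraction (printed here as percent), the read count covering it, the gap between group means on the same scale (printed here in percentage points), and a p-value. Levels are rounded to 2 decimals, and at all member sites they matched whole numbers of methylated reads within 0.5 points. Starts are printed as deposited, and whether they count from 0 or 1 is not known.

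Group means ± SD were recomputed from the levels. Nothing in the labels says that samples are separate animals, so the permutation p measures only the spread between these samples. The members, gene lists, level classes and named genes were chosen with earlier results of these data known. Genes named were those with at least 4 listed sites, at least 2 promoter sites, one of the 10 widest gaps or a CHG or CHH site; others are counted by role. Values of further genes (LRP6, WNT1, WNT10B, TGFBR2, PTCH1, DKK2 and SFRP2) and the examples outside the pattern were picked after they were seen. Some items of the lists are not reported here. 61 of 62 symbols matched RefSeq's symbols for the fin whale (assembly mBalPhy2.hap1.1, whose scaffold names differ from the deposited ones). Functions were checked on simulated data. Python 3.11.15, numpy 2.4.6, scipy 1.17.1, pandas 2.3.3 and matplotlib 3.10.9 were used.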

Additional observations from a re-analysis of the deposited data

How the results depend on the processing

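No paired analysis was possible because the sample titles share no replicate numbers between the groups. Of the 191 sites, 48.2% were higher (exact 95% interval 40.9% to 55.5%, counting error only). This interval takes each site as a separate draw. Sites of a gene can share reads and all share the same 6 samples, so it gives no spread between animals and covers this list only. The share ranged from 43.8% to 51.9% over the alternatives, except with at least 20 reads in each sample. There, 16 sites were left and 37.5% were higher. Without GLI2, an alternative added after seeing the data, it was 48.5%. With a sample left out, 175 to 185 sites still met a gap of 10 points without overlap, among sites chosen with all 6 samples, and 47.5% to 49.1% were higher. Genes with more higher sites and genes with more lower sites, 27 each, were 16 and 21 with gaps of at least 20 points, 4 and 6 at strongly different sites, and 3 and 8 with at least 20 reads; the first number was 25 to 28 with a sample left out. Promoter sites made up 5.04 points more of the higher than of the lower member sites. The exact 95% intervals of the 2 shares, which also take each site as a separate draw, gave -8.81 to 18.7. The difference was 17.9 points with gaps of at least 20 points, 14.3 at strongly different sites and 40 with at least 20 reads, on 7, 1 and 4 promoter sites. It turned to -1.94 points with 1 site per gene and 1 kb window, that of highest coverage, where 3 MFNG sites tied and a lower one was kept. With the widest gap kept instead, also added after seeing the data, MFNG counted as higher and the value was 0.625 points. The gap in coverage kept its sign under all alternatives run, with exact permutation p between 0.1 and 0.2. Of 360 recomputed level gaps of named genes, 350 stayed within 1 SD, 10 moved further and 0 changed sign. Another 16 could not be computed with at least 10 reads. Higher and lower sites were averaged apart, and the sites had been listed for these same gaps. A change of sign was thus nearly impossible from the start, and its absence is no check of the gaps. Coverage of 5 to 20 reads limits most single sites.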
